A study of Mus musculus with 17 samples.

Results

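Whether the gap in expression between hepatocytes and cholangiocytes was the same in cells differentiated in culture as in primary liver cells was asked of 25975 genes, as a difference of differences. The in vitro gap is the Diff_Hepatocyte mean minus the Diff_Cholanglocyte mean, the primary gap is the Primary_Hepatocyte mean minus the Primary_Cholangocyte mean, and the difference of differences is the in vitro gap minus the primary gap. A positive value means that the hepatocyte side stood higher, relative to the cholangiocyte side, in culture than in the primary cells. The contrast uses 13 of the 17 arrays of the series: 4 Diff_Hepatocyte, 3 Diff_Cholanglocyte, 4 Primary_Hepatocyte and 2 Primary_Cholangocyte arrays. All cells came from Foxl1-CRE; RosaYFP mice of 6 to 10 weeks. In such mice the Foxl1 promoter drives Cre and Cre switches on a yellow fluorescent protein, so that cells with a history of Foxl1 expression carry the colour. Both Diff groups are labelled as cells differentiated in vitro, one to hepatocytes and one to cholangiocytes, and the 4 remaining arrays hold undifferentiated adult hepatic progenitor cells. The labels speak of RNA from liver samples and from sorted cells without saying which groups were sorted, and RNA was amplified before labelling. The labels do not say whether the arrays of a group came from separate cultures, clones or animals, so p-values measure the spread between these arrays, which may be technical.

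Hepatocytes and cholangiocytes are the epithelial cells of the liver and share a fetal precursor, the hepatoblast. Hepatocytes secrete most plasma proteins, make bile acids and urea, and clear drugs with cytochrome P450 enzymes. Cholangiocytes line the bile ducts, carry keratins 7 and 19, and change bile by moving ions and water. Mmp7 encodes matrilysin, a small secreted protease that cuts matrix and cell surface proteins and is known in liver from bile duct epithelium.

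Levels are log2 of the processed Cy3 signal of a probe minus log2 of the 75th percentile of its array, so that 0 is the level of that percentile. The percentile was 1899 to 2198 signal units on the Diff_Hepatocyte arrays, 1741 to 2011 on the Diff_Cholanglocyte arrays, 544 to 983 on the Primary_Hepatocyte arrays and 2686 to 2848 on the Primary_Cholangocyte arrays. The dimmest probes well above background therefore sat at -6.51 to -5.62 in primary hepatocytes and at -7.69 to -7.00 on the other arrays, so low genes were measured less deeply in primary hepatocytes. These are bulk samples, in which fewer cells of a type and less RNA per cell cannot be told apart. In the primary cells Alb and Krt19 followed the labels. Alb, the main plasma protein, was at 9.46 to 10.31 in primary hepatocytes and -4.94 and -9.65 in primary cholangiocytes. Krt19 was at -8.52 to -5.84 in primary hepatocytes and 7.29 and 6.68 in primary cholangiocytes. Not every duct marker did so, as given further on. In culture Krt19 separated in the primary direction but by less, and for Alb the arrays of both cultures overlapped. Krt19 was at 3.79 to 5.16 in Diff_Hepatocyte cells and 5.85 to 6.99 in Diff_Cholanglocyte cells, and Alb was at 7.62, -4.76, 7.58 and -3.65 in Diff_Hepatocyte cells and -4.10, -7.96 and -9.32 in Diff_Cholanglocyte cells. Replicates 1 and 3 of Diff_Hepatocyte cells thus lay near the primary hepatocytes for Alb, and replicates 2 and 4 far below them.

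The lineage gap was called for more genes, and spread wider over genes, in the primary cells than in culture. In limma's test with Benjamini-Hochberg adjustment over all genes, the in vitro gap passed an adjusted p of 0.05 for 3998 genes (15.4% of those tested), 1811 of them higher (6.97%) and 2187 lower (8.42%) in Diff_Hepatocyte cells. The primary gap passed for 12887 genes (49.6%), 7269 higher (28.0%) and 5618 lower (21.6%) in primary hepatocytes. Across genes the in vitro gap had an SD of 1.15 and the primary gap an SD of 2.75. The arrays of both sides did not overlap for 27.8% of genes in culture and for 60.4% in the primary cells. The difference of differences passed for 9807 genes (37.8%), 4035 of them higher (15.5%) and 5772 lower (22.2%), and it exceeded 1 log2 unit in size for 8959 of these. Its median over all genes was -0.44, so the direction of small differences depends on the scaling: higher genes were 41.1% of those that passed, 52.4% after quantile normalization (median -0.10) and 19.9% after normexp background correction (median -0.98). Of the 10453 genes with a called primary gap of at least 1 log2 unit, 14.4% had an in vitro gap called in the same direction and 5.03% one called in the opposite direction.

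By the calls of both gaps, 7246 of the 9807 genes had a called primary gap alone (73.9%), 749 a called in vitro gap alone (7.64%), and 447 neither. Both gaps were called with opposite signs for 662 genes (6.75%), of which 363 stood higher and 299 lower in Diff_Hepatocyte cells than in Diff_Cholanglocyte cells. Both were called in 1 direction for 656 genes with the larger gap in the primary cells (6.69%) and for 47 with the larger gap in culture, 40 of these higher on the hepatocyte side. A further 1156 genes had both gaps called in 1 direction, 497 higher and 659 lower on the hepatocyte side, with no call in the difference of differences. Some of these counts moved by over 1.5 times when 1 array was left out. Without Diff_Cholanglocyte replicate 1 or 2 the in vitro gap was called for 2641 or 2646 genes, and the same-direction class with the larger primary gap held 416 or 413. Without Diff_Cholanglocyte replicate 2 the opposite class held 425 genes, and without Primary_Cholangocyte replicate 3 or 4 the same-direction class with the larger gap in culture held 18 or 19. A gap that was not called is not shown to be 0.

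**Figure D1:**
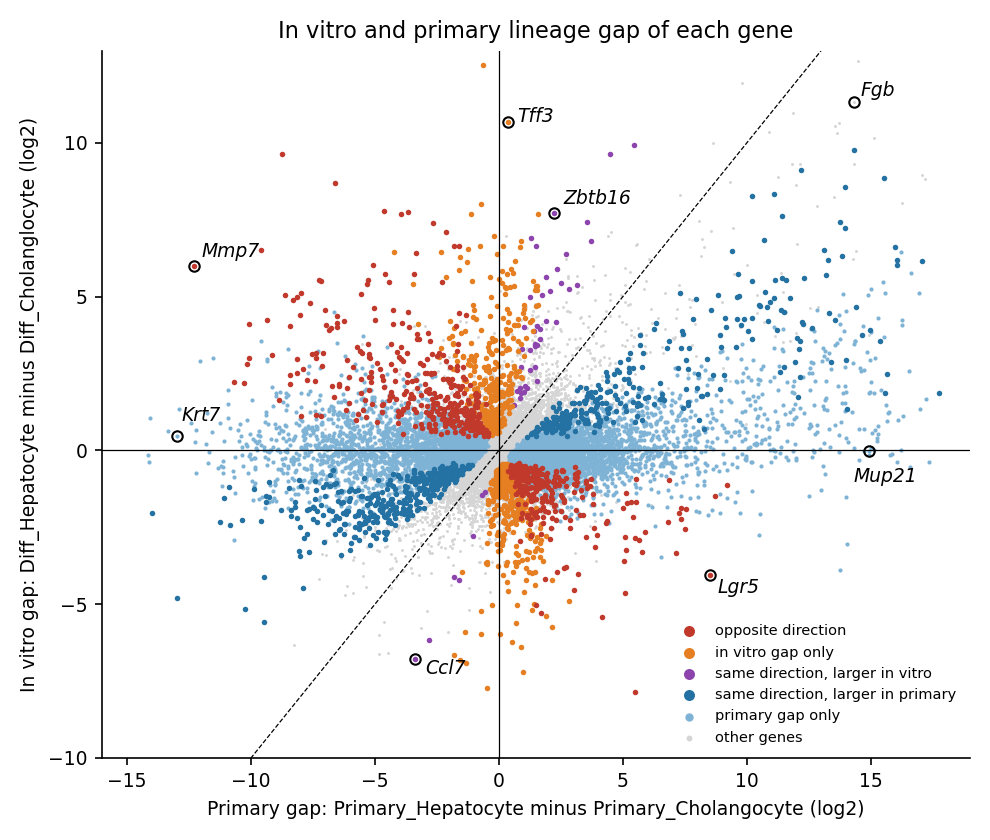
Each point is 1 of the 25975 genes, with its primary gap on the x axis and its in vitro gap on the y axis, both in log2 units; colours give the direction class and the dashed line marks equal gaps. Most coloured points lie along the x axis (7246 with the primary gap alone), the 662 red points of the opposite class lie upper left and lower right, and Mmp7 stands at an in vitro gap of 5.99 and a primary gap of -12.32.

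Primary hepatocytes were the group that most often set the difference. A group was taken to stand apart when its mean lay outside the other 3 means by more than the range of those 3. By that rule primary hepatocytes stood apart as high for 3863 of the 9807 genes (39.4%) and as low for 2295 (23.4%), and primary cholangiocytes as high for 607 and as low for 408. Diff_Hepatocyte cells stood apart as high for 221 genes and as low for 124, Diff_Cholanglocyte cells as high for 240 and as low for 102. For 1947 genes (19.9%) no single group stood apart. Over all 25975 genes, called or not, primary hepatocytes stood apart as high for 27.3% and as low for 14.4%. Primary cholangiocytes did so for 4.99% and 5.06% of all genes, against 6.19% and 4.16% of those called. Diff_Hepatocyte cells did so for 2.56% and 2.88%, against 2.25% and 1.26% of those called. Diff_Cholanglocyte cells did so for 4.47% and 1.92%, against 2.45% and 1.04%. The culture groups thus stood apart no more often among called genes than among all. No single group stood apart for 36.4% of all genes. In the opposite class no single group stood apart for 389 of 662 genes (58.8%).

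**Figure D2:**
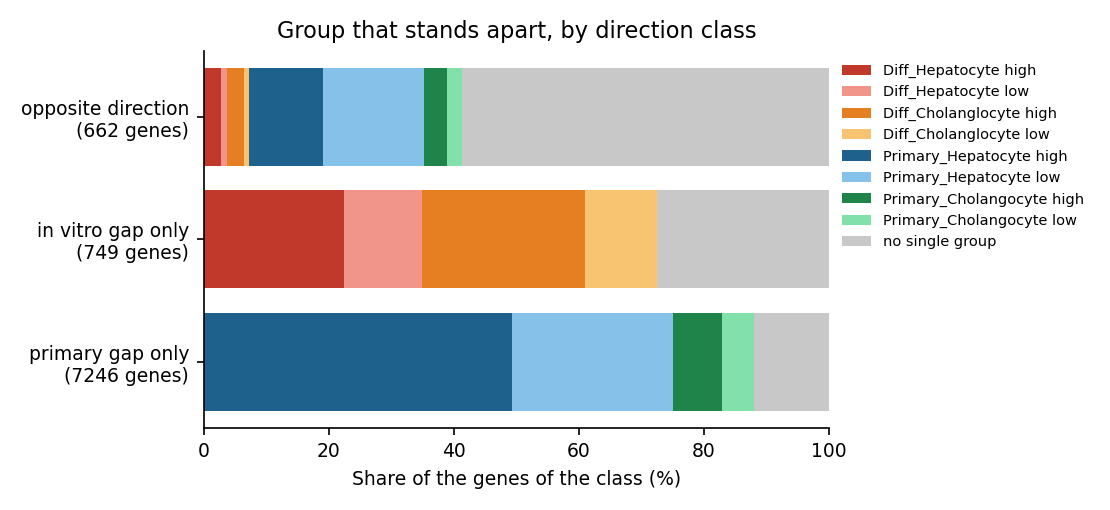
Horizontal bars show, for the opposite, in-vitro-only and primary-only classes, the share of genes in percent by the group whose mean stood apart and whether it was high or low. Primary hepatocytes take 49.3% as high and 25.8% as low of the primary-only class, Diff_Hepatocyte cells 22.4% as high and Diff_Cholanglocyte cells 26.0% as high of the in-vitro-only class, and 58.8% of the opposite class has no single group. The rule and the classes use the same group means. That culture groups are absent from the primary-only class, and primary groups from the in-vitro-only class, is therefore largely built in.

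Mmp7 was high in primary cholangiocytes and, in culture, on the hepatocyte side. It was read by 1 probe, at chr9:7697641-7697700 on the plus strand of mm9, printed 5′ to 3′ because all Mmp7 values rest on it.
Mmp7 probe: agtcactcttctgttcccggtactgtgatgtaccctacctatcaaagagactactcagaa
Its log2 levels were 2.47, 3.39, -0.16 and -0.17 in Diff_Hepatocyte cells and -4.93, -5.04 and -3.87 in Diff_Cholanglocyte cells. They were -5.22, -4.09, -5.92 and -5.10 in primary hepatocytes, 3 of these well above background, and 7.75 and 6.73 in primary cholangiocytes. Neither pair of groups overlapped, and in culture replicates 1 and 2 of Diff_Hepatocyte cells were the higher ones. The in vitro gap was 5.99 ± 0.84 (SE, adjusted p = 0.000406) and the primary gap -12.32 ± 0.96 (SE, adjusted p = 1.28e-07). Their difference was 18.32 ± 1.28 (SE, limma adjusted p = 1.08e-07), and it stayed called when each of the 13 arrays was left out in turn, at 17.65 to 18.83.

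The Mmp7 promoter is shown because AP-1 elements, the sites of Fos and Jun proteins, are known from promoters of matrix proteases, and that of Mmp13, a collagenase of the same family with a difference in the other direction, is set beside it. Both are RefSeq windows of GRCm38.p6 from 250 bases before to 50 after the gene start, 5′ to 3′ on the plus strand, at chr9:7691840-7692139 and chr9:7272264-7272563. Capitals mark TGACTCA, searched on both strands.
Mmp7 promoter: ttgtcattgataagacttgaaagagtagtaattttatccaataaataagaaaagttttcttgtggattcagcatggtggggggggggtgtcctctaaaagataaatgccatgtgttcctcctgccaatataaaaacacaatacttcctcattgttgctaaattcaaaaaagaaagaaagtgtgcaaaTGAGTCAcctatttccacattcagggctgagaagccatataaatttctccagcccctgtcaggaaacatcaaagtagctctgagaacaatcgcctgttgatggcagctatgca
Mmp13 promoter: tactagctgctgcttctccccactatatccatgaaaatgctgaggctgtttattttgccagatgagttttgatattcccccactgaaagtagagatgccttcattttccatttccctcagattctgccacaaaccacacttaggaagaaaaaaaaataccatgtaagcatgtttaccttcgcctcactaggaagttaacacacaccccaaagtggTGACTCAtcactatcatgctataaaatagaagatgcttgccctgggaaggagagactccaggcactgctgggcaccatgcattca
The match begins 63 bases before the start of Mmp7 and 35 bases before that of Mmp13. It stands in 5.2% of all 32851 promoters of this length and in 5 of 20 genes of the protease list with a promoter, Mmp3, Mmp7, Mmp10, Mmp12 and Mmp13. In the difference of differences 1 of these 5 was called higher, against 7 of the 15 without the letters. Mmp13 was at -6.34, -5.60, -4.84 and -8.51 in Diff_Hepatocyte cells and -1.19, 2.58 and 2.83 in Diff_Cholanglocyte cells. It was not well above background on any primary hepatocyte array and was so on 1 of 2 primary cholangiocyte arrays, and its in vitro gap of -7.73 (limma adjusted p = 0.000354) was called alone.

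Of 27 metalloproteinase and inhibitor genes tested, 10 were higher, 3 lower and 14 not called, with a median of 0.59, against 15.5% higher, 22.2% lower and a median of -0.44 over all genes. Timp1, a secreted inhibitor of these proteases, was at 5.09 to 5.81 in Diff_Hepatocyte cells and 2.92 to 3.06 in Diff_Cholanglocyte cells, so its in vitro gap was 2.44 (limma adjusted p = 0.00011). In the primary cells it ran the other way, at least 102-fold lower in hepatocytes, where it was not well above background, than in cholangiocytes. Adam9 and Adamts4 were the other opposite members. Timp2 averaged 6.56 ± 0.70 in Diff_Hepatocyte cells and 7.0 ± 0.25 in Diff_Cholanglocyte cells, against -3.18 ± 0.67 in primary hepatocytes and 5.54 ± 1.05 in primary cholangiocytes (SD, n = 4, 3, 4 and 2), so only its primary gap was called. Adam8, a membrane protease, had the same shape, with a difference of differences of 8.88 ± 0.87 (SE, limma adjusted p = 2.87e-06). Mmp19, one of the lower members, had gaps of 1.84 in culture and 6.57 in the primary cells.

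In 363 genes of the opposite class Diff_Hepatocyte cells were the higher culture and primary cholangiocytes the higher primary cells. Rgs2, a brake on G protein signalling, was at 3.27, 2.95, 4.70 and 2.53 in Diff_Hepatocyte cells and -3.48, -2.64 and -0.46 in Diff_Cholanglocyte cells, against -4.77 to -3.15 in primary hepatocytes and 4.91 and 1.51 in primary cholangiocytes. Slc16a3, the lactate exporter MCT4, was at 1.44, 2.93, 0.30 and 2.45 in Diff_Hepatocyte cells and -4.39, -4.58 and -2.23 in Diff_Cholanglocyte cells, against -4.83 to -3.53 in primary hepatocytes and 3.44 and 2.60 in primary cholangiocytes. For both genes neither pair of groups overlapped, and the differences of differences were 12.80 ± 1.48 and 12.70 ± 0.95 (SE, limma adjusted p = 1.3e-05 and 2.2e-07). Lcn2, lipocalin 2, a secreted carrier of iron siderophores, averaged 7.02 ± 1.05 in Diff_Hepatocyte cells and 1.0 ± 2.86 in Diff_Cholanglocyte cells, against 1.2 ± 1.43 in primary hepatocytes and 6.29 ± 0.11 in primary cholangiocytes (SD, n = 4, 3, 4 and 2). Pdzk1ip1, a small membrane protein, had gaps of 5.47 in culture and -4.45 in the primary cells. Aebp1, a secreted collagen-binding protein, stood highest in Diff_Hepatocyte cells, at 3.18 to 5.48, with -2.12 to -0.56 in Diff_Cholanglocyte cells, -5.35 to -4.41 in primary hepatocytes and -0.59 and -0.20 in primary cholangiocytes.

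Mapk13, the delta form of p38 kinase, belonged to the same class with primary cholangiocytes far above the rest. It was at -2.26 to 0.47 in Diff_Hepatocyte cells and -5.82 to -4.46 in Diff_Cholanglocyte cells, against -5.62 to -4.28 in primary hepatocytes and 3.33 and 3.55 in primary cholangiocytes. Parm1, a mucin-like membrane protein, and Fbln2, a matrix fibulin, entered it with low primary hepatocytes instead. Parm1 averaged 4.80 in Diff_Hepatocyte cells and 2.66 in Diff_Cholanglocyte cells, against -4.90 in primary hepatocytes and 3.53 in primary cholangiocytes, and its in vitro gap of 2.15 was small beside its primary gap of -8.43. S100a6, a calcium-binding protein, had the primary gap alone: it was at 7.38 to 7.66 in Diff_Hepatocyte cells and 7.78 to 8.07 in Diff_Cholanglocyte cells, against -4.66 to -3.92 in primary hepatocytes and 7.37 and 7.46 in primary cholangiocytes. Its difference of differences was 11.30 ± 0.29 (SE, limma adjusted p = 9.86e-12), with primary hepatocytes standing apart as low.

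The reverse arrangement, with Diff_Cholanglocyte cells and primary hepatocytes on the higher side, held for 299 genes. Ptprb, a receptor phosphatase known from endothelial cells, was at -0.12, -0.71, -0.53 and -1.44 in Diff_Hepatocyte cells and 1.93, 2.41 and 2.0 in Diff_Cholanglocyte cells, against -0.23 to 0.79 in primary hepatocytes and -2.27 and -4.13 in primary cholangiocytes. Camk1d, a calmodulin-dependent kinase, was at -2.02 to -0.25 in Diff_Hepatocyte cells and 0.94 to 1.5 in Diff_Cholanglocyte cells, against 2.25 to 2.94 in primary hepatocytes and -1.94 and -1.60 in primary cholangiocytes. In neither gene did the sides overlap. Lgr5, the R-spondin receptor of several epithelial stem cells and of pericentral hepatocytes, was at -3.77, -6.52, -4.96 and -7.03 in Diff_Hepatocyte cells, 3 of these well above background, and -1.28, -1.36 and -1.95 in Diff_Cholanglocyte cells. In primary hepatocytes it was at -1.35 to -0.47, at least 92.8-fold above primary cholangiocytes, where it was not well above background. Slc1a2, a glutamate transporter, and Spsb4, a SOCS-box protein, had in vitro gaps of -2.23 and -2.56 and primary gaps of 7.33 and 7.53. Lcp1, an actin bundler of leukocytes, and Tgfbi, a secreted matrix protein, had in vitro gaps nearer the threshold, -2.83 and -2.35 (limma adjusted p = 0.0277 and 0.047), and the arrays of both cultures overlapped for these genes and for Spsb4.

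**Figure D3:**
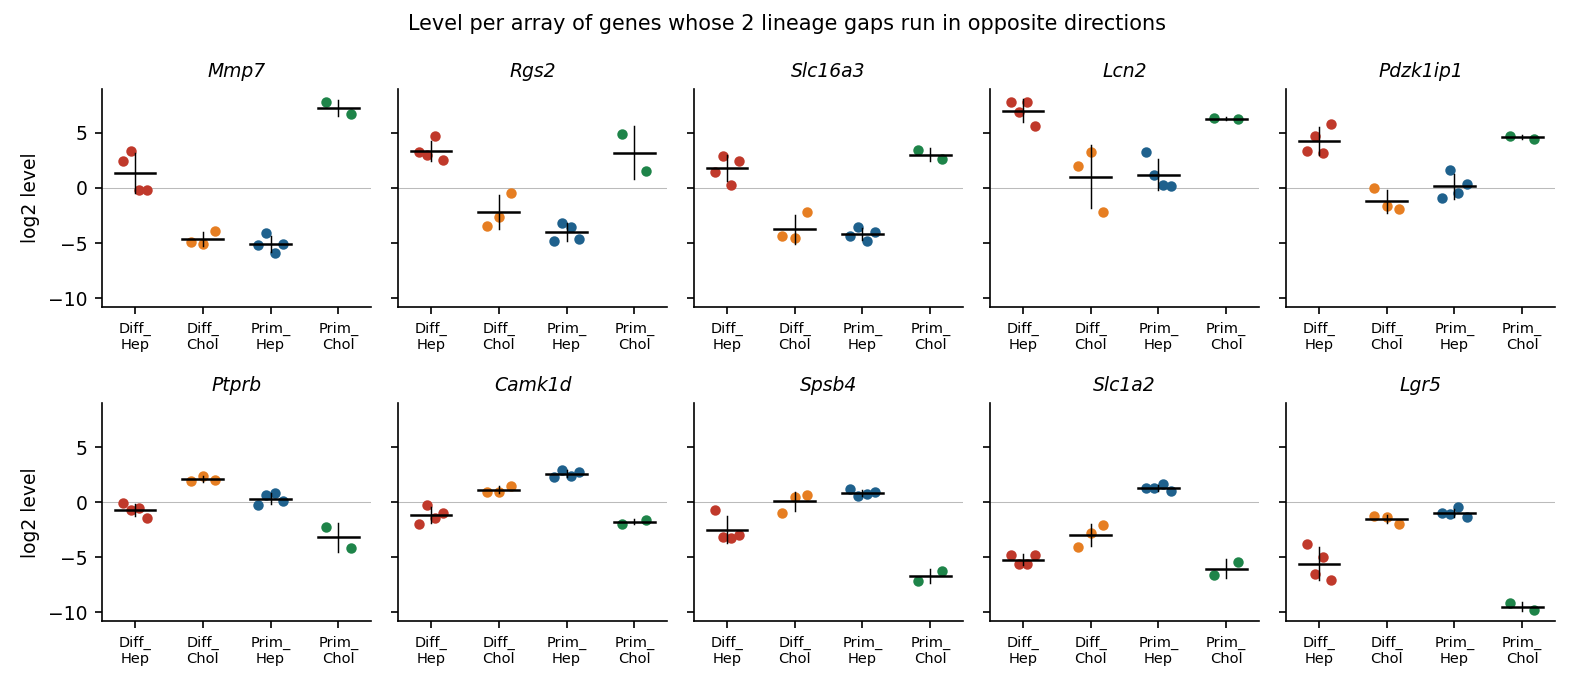
Points are the log2 levels of single arrays for 10 genes of the opposite class, from left to right Diff_Hepatocyte (n = 4), Diff_Cholanglocyte (n = 3), Primary_Hepatocyte (n = 4) and Primary_Cholangocyte (n = 2), with horizontal bars for the mean and vertical lines for 1 SD. In the upper row the outer groups are high and the inner ones low (Mmp7 means of 1.38 and -4.61 in culture, -5.08 and 7.24 in the primary cells), and in the lower row the inner groups are high.

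Interferon-stimulated genes, which encode antiviral proteins and answer interferon, differed between the cultures in 1 direction. Of 36 tested, 28 were higher in Diff_Hepatocyte cells than in Diff_Cholanglocyte cells and none lower by the limma test, against 6.97% and 8.42% of all genes, and in the primary cells 13 were higher and 7 lower in hepatocytes, against 28.0% and 21.6% of all genes, so the primary counts lay nearer to those of all genes. In the difference of differences 22 were higher, 2 lower and 12 not called, with a median of 2.53, against 15.5% higher and 22.2% lower of all genes. The in vitro gap alone was called for 10 members, 6 lay in the opposite class, 4 had the larger gap in culture in the same direction, 3 the primary gap alone, and 6 both gaps with no call in their difference.

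Oligoadenylate synthetases, whose products activate a ribonuclease that degrades viral RNA, and their relative Oasl2 made up 4 of the 6 opposite members. Oas1a was at 1.55, 1.22, 2.1 and 1.32 in Diff_Hepatocyte cells and -3.86, -2.19 and -1.65 in Diff_Cholanglocyte cells, against -1.88 to -0.97 in primary hepatocytes and 3.52 and 2.43 in primary cholangiocytes. Oas2 had the widest in vitro gap of the list, 7.69 ± 0.83 (SE, limma adjusted p = 5.56e-05), and a primary gap of -3.94, although its primary cholangiocyte arrays lay apart at 1.30 and -3.35. Neither pair of groups overlapped for either gene. Oasl2 had gaps of 5.42 in culture and -5.31 in the primary cells. Oas3 had an in vitro gap of 4.16 and was at least 5.41-fold lower in primary hepatocytes, where it was not well above background, than in primary cholangiocytes. Ifi44, another interferon product, had gaps of 7.10 and -2.14. Oas genes are close relatives, and how far a probe reads more than 1 of them was not tested.

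Ifit1, Isg15 and Rsad2 were among the members with the in vitro gap alone. Ifit1, which binds viral RNA that lacks a cap methyl group, was at 1.55, -0.08, 1.51 and 1.15 in Diff_Hepatocyte cells and -5.09, -5.45 and -4.03 in Diff_Cholanglocyte cells, against -1.52 to -1.02 in primary hepatocytes and -1.49 and -2.06 in primary cholangiocytes. Isg15, a ubiquitin-like modifier, was at 2.59 to 3.51 in Diff_Hepatocyte cells and -2.04 to 0.18 in Diff_Cholanglocyte cells, against 1.81 to 2.56 in primary hepatocytes and 1.17 and 1.62 in primary cholangiocytes. Rsad2, viperin, was at -2.84 to -0.82 in Diff_Hepatocyte cells and well above background on 1 of 3 arrays of Diff_Cholanglocyte cells, against -2.44 to -1.86 in primary hepatocytes and -2.08 and -1.77 in primary cholangiocytes. Diff_Cholanglocyte cells stood apart as low for Ifit1, Isg15 and Rsad2, which, like Oas3, were chosen after their values were seen. Ifit3 was higher on the hepatocyte side in both settings, by 4.02 in culture and 1.02 in the primary cells. Ddx58, the RNA sensor RIG-I, and Bst2, tetherin, were the lower members, at -1.78 ± 0.46 and -1.60 ± 0.48 (SE, limma adjusted p = 0.00756 and 0.0168). Both calls were lost without Primary_Cholangocyte replicate 3, at -1.19 for Ddx58 and -0.88 for Bst2 (adjusted p = 0.0625 and 0.135).

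Promoters of 4 of these genes are shown because the interferon-stimulated response element is the promoter sequence known for this group. They are RefSeq windows of GRCm38.p6, printed 5′ to 3′ on the strand of the gene, at chr5:120907476-120907775 (minus, Oas1a), chr19:34640639-34640938 (plus, Ifit1), chr12:26456403-26456702 (minus, Rsad2) and chr4:156200769-156201068 (minus, Isg15). Capitals mark GAAA followed by any 2 bases and GAAA again, searched on both strands, and overlapping matches run together.
Oas1a promoter: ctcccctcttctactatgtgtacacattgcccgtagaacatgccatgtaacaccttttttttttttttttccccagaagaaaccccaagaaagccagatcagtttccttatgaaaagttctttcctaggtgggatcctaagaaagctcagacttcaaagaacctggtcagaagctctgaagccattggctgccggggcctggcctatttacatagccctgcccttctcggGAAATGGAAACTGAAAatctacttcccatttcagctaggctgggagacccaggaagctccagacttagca
Ifit1 promoter: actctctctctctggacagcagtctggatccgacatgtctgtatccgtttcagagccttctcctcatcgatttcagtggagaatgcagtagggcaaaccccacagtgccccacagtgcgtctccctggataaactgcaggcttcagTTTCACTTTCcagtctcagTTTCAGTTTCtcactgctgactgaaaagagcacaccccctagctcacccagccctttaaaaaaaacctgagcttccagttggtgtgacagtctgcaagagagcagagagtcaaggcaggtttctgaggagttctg
Rsad2 promoter: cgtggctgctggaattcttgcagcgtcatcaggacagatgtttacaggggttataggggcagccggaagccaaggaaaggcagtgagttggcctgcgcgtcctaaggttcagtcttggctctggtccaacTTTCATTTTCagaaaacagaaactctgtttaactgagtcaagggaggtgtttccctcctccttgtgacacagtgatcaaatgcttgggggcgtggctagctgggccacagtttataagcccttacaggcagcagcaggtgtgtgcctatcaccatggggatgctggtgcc
Isg15 promoter: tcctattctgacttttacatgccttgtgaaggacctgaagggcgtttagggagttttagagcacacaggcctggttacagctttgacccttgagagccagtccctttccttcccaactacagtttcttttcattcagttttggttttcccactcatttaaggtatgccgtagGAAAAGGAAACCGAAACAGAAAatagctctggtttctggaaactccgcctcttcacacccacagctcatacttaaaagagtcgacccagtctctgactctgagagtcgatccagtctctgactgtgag
The letters stand in 3.44% of all 32851 promoters and in 15 of 26 genes of the interferon list with a promoter (57.7%). Oas1a holds 2 matches, at 20 and 14 bases before its start, Ifit1 2 at 104 and 85 bases, Rsad2 1 at 120 bases, and Isg15 3 at 78, 72 and 66 bases. Among list genes with the letters 10 of 15 were called higher in the difference of differences, and among those without them 8 of 11.

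**Figure D4:**
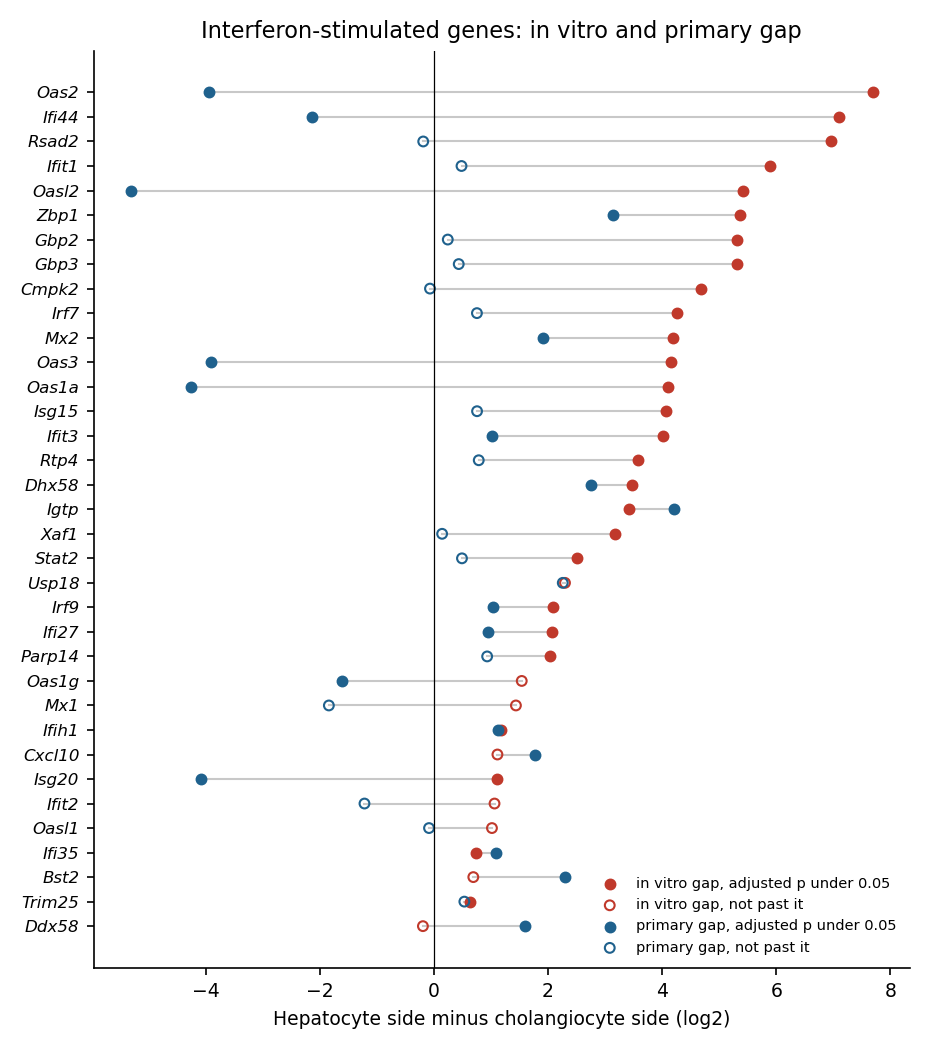
For the interferon-stimulated genes, 1 of the 36 not shown, the in vitro gap (red) and the primary gap (blue) are plotted in log2 units, ordered by the in vitro gap; filled points passed an adjusted p of 0.05. The filled red points lie right of 0, up to 7.69 for Oas2, and the blue points lie on both sides, down to -5.31 for Oasl2.

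Outside that list, the class with the larger gap in culture was led by Zbtb16, the zinc finger repressor PLZF, and Tgtp2, an interferon-induced GTPase. Zbtb16 was at 2.08 to 2.64 in Diff_Hepatocyte cells and -5.62 to -5.03 in Diff_Cholanglocyte cells, against -1.02 to -0.12 in primary hepatocytes and -2.65 and -2.91 in primary cholangiocytes. Tgtp2 was at 5.42 to 6.45 in Diff_Hepatocyte cells and -1.71 to -1.02 in Diff_Cholanglocyte cells, against 0.32 to 0.59 in primary hepatocytes and -4.05 and -2.12 in primary cholangiocytes. Both were highest in Diff_Hepatocyte cells, with gaps of 7.72 and 2.20 for Zbtb16 and of 7.41 and 3.54 for Tgtp2. Among the 7 genes with the cholangiocyte side higher, Tcim, a small regulator of Wnt signalling, had gaps of -4.11 and -1.82, and Pidd1, a p53 target, gaps of -2.77 and -1.06. Fosb, an AP-1 subunit, was at -4.82 to -3.33 in Diff_Hepatocyte cells and 1.60 to 2.56 in Diff_Cholanglocyte cells, against -4.81 to -3.24 in primary hepatocytes and 0.99 and -3.44 in primary cholangiocytes. Its difference of differences was -3.36 ± 1.15 (SE, limma adjusted p = 0.0336) and lost the call when any of 6 of the 13 arrays was left out. Without Primary_Cholangocyte replicate 4 Fosb was at -1.14 and Tcim at -1.47 (adjusted p = 0.259 and 0.11), and without replicate 3 Fosb was at -5.58. Ccl7, a monocyte attractant picked after its values were seen, was at -2.66 to -1.38 in Diff_Hepatocyte cells and 4.07 to 5.45 in Diff_Cholanglocyte cells. It was at least 2.73-fold lower in primary hepatocytes, where it was not well above background, than in primary cholangiocytes, and its difference of differences of -3.42 was -2.06 without Primary_Cholangocyte replicate 3.

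Among genes with the in vitro gap alone, Sned1, a matrix protein, was at 0.36, 1.83, -0.14 and 2.68 in Diff_Hepatocyte cells and -6.22, -3.98 and -5.95 in Diff_Cholanglocyte cells, against -2.19 to -1.05 in primary hepatocytes and 0.13 and -0.77 in primary cholangiocytes. Akr1b7, an aldo-keto reductase, averaged 1.70 ± 1.42 in Diff_Hepatocyte cells and -4.95 ± 0.79 in Diff_Cholanglocyte cells, against -3.80 ± 0.56 in primary hepatocytes and -3.03 ± 1.40 in primary cholangiocytes (SD, n = 4, 3, 4 and 2). Sned1 was set apart by low Diff_Cholanglocyte cells and Akr1b7 by high Diff_Hepatocyte cells. Ly6a, the surface antigen Sca-1, had an in vitro gap of 6.13 (limma adjusted p = 0.00432), but its primary cholangiocyte arrays lay apart at -4.77 and 1.42, and without replicate 4 its difference of differences of 7.41 was 4.32 (adjusted p = 0.0493). Tff3, a trefoil peptide of mucous epithelia chosen after its values were seen, was at 2.42, 4.70, 2.79 and 0.40 in Diff_Hepatocyte cells, at least 907-fold above Diff_Cholanglocyte cells, where no array was well above background. Its primary gap was 0.35 (adjusted p = 0.816). Sult1a1, a phenol sulfotransferase, was at 4.35 to 6.15 in Diff_Hepatocyte cells and -4.57 to -0.10 in Diff_Cholanglocyte cells, against 5.23 to 5.86 in primary hepatocytes and 4.51 and 3.59 in primary cholangiocytes. In the other direction Gsta2, a glutathione transferase, was at -1.74 to -0.08 in Diff_Hepatocyte cells and 4.33 to 6.11 in Diff_Cholanglocyte cells, against 4.31 to 4.79 in primary hepatocytes and 4.80 and -0.05 in primary cholangiocytes. Cmtm8, a membrane protein, had an in vitro gap of -4.91 and a primary gap of 2.82 that fell just short of the threshold (adjusted p = 0.0512).

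Genes of hepatocyte function were called lower more often than the 22.2% of all genes, and those that were lower mostly had the primary gap alone. Of 48 plasma protein genes 29 were lower and 19 not called, with a median of -7.42; 20 had a called in vitro gap and all 48 a called primary gap, each higher on the hepatocyte side. Without Primary_Cholangocyte replicate 4 the lower plasma proteins numbered 19. Lower genes were 29 of 38 P450 and conjugation enzymes, 31 of 36 urea and amino acid genes, 16 of 19 glucose genes, 21 of 23 bile acid genes, 23 of 26 fatty acid oxidation genes and 19 of 26 complement genes. Sult1a1 was the single higher member of these lists. Markers of endothelial cells, Kupffer cells and red blood cells also summed to more in primary hepatocytes than in the other groups, as given further on, and their part in these counts was not tested.

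Mup21, a major urinary protein secreted by the liver, was at -5.96 to -4.72 in Diff_Hepatocyte cells and -5.98 to -4.86 in Diff_Cholanglocyte cells, against 7.26 to 8.62 in primary hepatocytes and -7.12 and -6.72 in primary cholangiocytes. Its difference of differences was -14.94 ± 0.73, that of Mup19 -14.51 ± 0.72, and that of Ugt2b38, a glucuronosyltransferase, -13.84 ± 1.09 (SE). Both families hold near-identical copies, which their probes may read together. C8a, a subunit of the membrane attack complex, and Cyp8b1, which sets the share of cholic acid among bile acids, were well above background in primary hepatocytes alone, at least 9043-fold and 1686-fold above primary cholangiocytes. Hpd, of tyrosine breakdown, and Gys2, the liver glycogen synthase, were at least 24600-fold and 9231-fold higher in primary hepatocytes than in primary cholangiocytes, and were well above background on 2 and 3 of the 4 arrays of Diff_Hepatocyte cells and on none of Diff_Cholanglocyte cells. Cps1, the first enzyme of the urea cycle, chosen after its values were seen, was at 0.36, -8.20, 1.23 and -5.92 in Diff_Hepatocyte cells, split between replicates as Alb was. Its difference of differences was -7.92 ± 2.79 (SE, limma adjusted p = 0.0376), a call lost when any of 9 of the 13 arrays was left out (adjusted p up to 0.0956).

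For some lower genes both cultures carried the transcript and primary cholangiocytes stood apart as low. Rbp4, the plasma carrier of retinol, was at 7.05, 6.58, 7.26 and 6.59 in Diff_Hepatocyte cells and 6.88, 6.54 and 6.92 in Diff_Cholanglocyte cells, against 8.56 to 9.33 in primary hepatocytes and -4.81 and -5.78 in primary cholangiocytes. Apob, the protein of very low density lipoprotein, was at 3.46 to 5.03 in Diff_Hepatocyte cells and 3.92 to 4.47 in Diff_Cholanglocyte cells, against 6.58 to 7.39 in primary hepatocytes and -4.40 and -5.46 in primary cholangiocytes. The arrays of both cultures overlapped for both genes, with in vitro gaps of 0.09 and -0.02 and primary gaps of 14.33 and 11.88. Abcc2, the exporter of conjugated bilirubin, was at -1.96, -4.73, -0.37 and -6.84 in Diff_Hepatocyte cells and 1.53, 1.32 and -1.59 in Diff_Cholanglocyte cells. The arrays of both cultures lay between those of the primary cells, and no single group stood apart for this gene. It was at least 3028-fold higher in primary hepatocytes than in primary cholangiocytes, where it was not well above background, and its fitted difference of differences was -17.68 ± 2.02 (SE, limma adjusted p = 1.19e-05).

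For other secreted proteins both gaps were called and their difference was not. Fgb, the fibrinogen beta chain, was at 8.47, 8.42, 8.69 and 8.18 in Diff_Hepatocyte cells and -2.43, -1.56 and -4.69 in Diff_Cholanglocyte cells, against 8.61 to 8.99 in primary hepatocytes and -3.80 and -7.25 in primary cholangiocytes. Its gaps were 11.34 ± 1.48 in culture and 14.31 ± 1.68 in the primary cells (SE), and their difference -2.97 ± 2.24 (SE, limma adjusted p = 0.312). Without Primary_Cholangocyte replicate 3 or 4 that difference was -4.70 or -1.25 for Fgb, and -6.06 or -1.51 for Ttr, the gene of transthyretin, with no call in any of these. Kng1, kininogen, had gaps of 10.54 and 13.56, and Serpina3m, a protease inhibitor, gaps of 10.34 and 13.66. With the cholangiocyte side higher, Sprr1a, a cornified envelope protein, had gaps of -6.32 and -8.27, and Cd55, a complement regulator, gaps of -3.26 and -4.84. Of the 48 plasma proteins 12 lay in this class. Several hepatocyte markers spread widely within Diff_Hepatocyte cells and were not called: the difference was -8.36 ± 5.29 for Alb, -3.78 ± 2.72 for Ttr, -4.19 ± 1.75 for G6pc, the last step of glucose release, and -5.71 ± 2.25 for Cyp3a11, a drug-clearing P450 (SE, limma adjusted p = 0.228, 0.289, 0.0738 and 0.06). Without Diff_Hepatocyte replicate 1 or 3, G6pc (adjusted p = 0.027 and 0.0345) and Cyp3a11 (adjusted p = 0.00212 and 0.0449) passed.

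Of 30 liver transcription factors 16 were lower, 4 higher and 10 not called, against 22.2% lower and 15.5% higher of all genes, so the higher ones were near the share of all genes. Hnf4a, a nuclear receptor that maintains hepatocyte identity, was at 5.72, 4.73, 5.96 and 4.46 in Diff_Hepatocyte cells and 5.28, 5.21 and 5.18 in Diff_Cholanglocyte cells, against 6.76 to 7.30 in primary hepatocytes and 3.93 and 1.42 in primary cholangiocytes. Cebpa, which drives metabolic genes, was at -2.48 to -0.12 in Diff_Hepatocyte cells and -1.72 to -1.08 in Diff_Cholanglocyte cells, against 3.61 to 4.47 in primary hepatocytes and -0.72 and -2.32 in primary cholangiocytes. Both cultures thus lay between the primary cells for Hnf4a and within the range of primary cholangiocytes or near it for Cebpa, and the differences of differences were -4.38 ± 0.73 and -5.58 ± 0.82 (SE). Hlf, a clock-linked factor, and Nr0b2, the repressor SHP, had differences of differences of -8.77 ± 0.53 and -6.92 ± 0.72 (SE). Creb3l3, a membrane-bound liver factor, had gaps of 4.95 in culture and 11.76 in the primary cells. Gata6, Cebpd and Nr2f2 were among the higher factors. Cebpd, an acute phase factor, lay in the opposite class at 5.02 to 5.46 in Diff_Hepatocyte cells and 1.26 to 2.11 in Diff_Cholanglocyte cells, against 0.77 to 1.89 in primary hepatocytes and 3.32 and 4.75 in primary cholangiocytes, as did Nr2f2, the orphan receptor COUP-TFII, with gaps of 1.18 and -0.80.

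Bile duct markers ran the other way. Of 50 tested, 34 were higher, 5 lower and 11 not called, against 15.5% higher and 22.2% lower of all genes, with a median of 4.93. The in vitro gap was higher for 8 and lower for 8, against 6.97% and 8.42% of all genes, and the primary gap higher for 5 and lower for 36, against 28.0% and 21.6%. Among the 5 that were higher in primary hepatocytes were Slc10a2, Aqp1 and Slc4a2, with primary gaps of 5.77, 3.23 and 2.49. Ambp was also among them, with gaps of 5.74 in culture and 9.64 in the primary cells. By these values Ambp was no duct marker here, and the counts of the list include it. The primary gap of Sox9, -0.73, was not called. Krt7 was at 3.75, 4.47, 3.27 and 4.12 in Diff_Hepatocyte cells and 3.49, 3.35 and 3.51 in Diff_Cholanglocyte cells, against 5.49 and 5.46 in primary cholangiocytes. Primary hepatocytes were not well above background, at least 2977-fold lower than primary cholangiocytes, and the difference of differences was 13.45 ± 0.54 (SE, limma adjusted p = 5.98e-10). Cd24a, a surface glycoprotein of duct and progenitor cells, was at 4.53 to 5.05 in Diff_Hepatocyte cells and 4.85 to 5.40 in Diff_Cholanglocyte cells, and at least 4093-fold lower in primary hepatocytes than in primary cholangiocytes. Krt19 had an in vitro gap in the primary direction, -2.03 (adjusted p = 0.0216) beside a primary gap of -14.00. Spp1, osteopontin, averaged 5.51 ± 0.79 in Diff_Hepatocyte cells and 4.14 ± 0.35 in Diff_Cholanglocyte cells, against -4.63 ± 0.87 in primary hepatocytes and -0.12 ± 0.62 in primary cholangiocytes (SD, n = 4, 3, 4 and 2), so both cultures stood above both primary groups.

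Other duct markers were high in primary cholangiocytes alone. Epcam, the epithelial adhesion molecule, was at -6.62, -2.80, -5.75 and -6.74 in Diff_Hepatocyte cells and -6.24, -7.26 and -6.37 in Diff_Cholanglocyte cells, against 3.05 and 2.22 in primary cholangiocytes, and no primary hepatocyte array was well above background. Cldn7, a tight junction claudin, was at -4.40 to -3.69 in Diff_Hepatocyte cells and -4.25 to -4.02 in Diff_Cholanglocyte cells, against -2.91 to -2.40 in primary hepatocytes and 5.17 and 5.24 in primary cholangiocytes. Grhl2, a factor that regulates junction genes, and Cldn4 had differences of differences of 8.93 ± 0.69 and 6.42 ± 1.57 (SE). Cldn3 was another case: it was at -1.45 to 0.35 in Diff_Hepatocyte cells and -7.25 to -5.14 in Diff_Cholanglocyte cells, against 4.17 to 4.78 in primary hepatocytes and 4.02 and 4.62 in primary cholangiocytes, so that its in vitro gap alone was called. Over 36 junction genes 15 were higher and 3 lower, against 15.5% and 22.2% of all genes. Sox9, the duct and progenitor factor, was not called (1.74 ± 0.90, SE, limma adjusted p = 0.144). Its primary cholangiocyte arrays were at -3.64 and -0.55, and without replicate 3 it passed at 3.28 (adjusted p = 0.00343).

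Of 30 genes of ductal ion and water transport 15 were higher, 7 lower and 8 not called, against 15.5% higher and 22.2% lower of all genes, so the lower ones were near the share of all genes. In the opposite class lay 7 of them, against 662 of all 25975 genes. Fxyd3, a regulator of the sodium pump, was at 0.21, 1.84, -1.14 and 0.41 in Diff_Hepatocyte cells and -4.75, -5.19 and -4.23 in Diff_Cholanglocyte cells, against -6.05 to -4.98 in primary hepatocytes and 4.12 and 2.44 in primary cholangiocytes. Neither pair of groups overlapped, and the difference of differences was 13.68 ± 0.94 (SE, limma adjusted p = 9.53e-08). Kcnq1, a potassium channel, was at -5.36, -0.48, -9.68 and -2.67 in Diff_Hepatocyte cells, a mean at least 6.74-fold above Diff_Cholanglocyte cells, where it was not well above background, and its primary gap was -8.13. Replicate 3 of Diff_Hepatocyte cells lay at the level of Diff_Cholanglocyte cells for this gene. Aqp5, a water channel of secretory epithelia, was at least 4451-fold lower in primary hepatocytes than in primary cholangiocytes, with an in vitro gap of 1.35 that was not called. Ano1, a chloride channel, averaged 5.65 ± 0.61 in Diff_Hepatocyte cells and 5.99 ± 0.21 in Diff_Cholanglocyte cells, against -6.21 ± 0.29 in primary hepatocytes and 4.93 ± 1.05 in primary cholangiocytes (SD, n = 4, 3, 4 and 2). Aqp9, the glycerol channel of hepatocytes, was among the lower genes, at least 274-fold higher in primary hepatocytes than in primary cholangiocytes.

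Cell cycle genes had the same direction in both settings. Of 50 tested, 44 were lower in Diff_Hepatocyte cells than in Diff_Cholanglocyte cells and 44 lower in primary hepatocytes than in primary cholangiocytes, with none called higher by limma in either gap. Over all genes 8.42% were lower in culture and 21.6% in the primary cells. The median gaps were -1.99 in culture and -3.62 in the primary cells. In the difference of differences 25 were higher, 1 lower and 24 not called, against 15.5% higher and 22.2% lower of all genes. Of the 50, 23 lay in the same-direction class with the larger primary gap and 19 had both gaps with no call in their difference. Uhrf1, which maintains DNA methylation through replication, was at -1.04 to 0.55 in Diff_Hepatocyte cells and 1.24 to 2.08 in Diff_Cholanglocyte cells, against -7.47 to -5.18 in primary hepatocytes and 0.62 and 0.12 in primary cholangiocytes. Ccnd2, a G1 cyclin, had a called primary gap alone (-7.25). Cdc45, a replication factor, was the lower one, with gaps of -1.56 and 0.28.

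The counts of higher and lower genes that follow stand against 15.5% and 22.2% of all genes. Among genes of the pathway and targets of YAP, which responds to cell spreading and matrix stiffness, 19 of 26 were higher and 2 lower. Ccn2 averaged 5.53 ± 1.03 in Diff_Hepatocyte cells and 6.27 ± 0.54 in Diff_Cholanglocyte cells, against -4.89 ± 0.65 in primary hepatocytes and 6.26 ± 0.99 in primary cholangiocytes (SD, n = 4, 3, 4 and 2), and Ankrd1 had a difference of differences of 9.24 ± 1.01 (SE). Of 39 matrix and integrin genes 17 were higher and 4 lower. Immediate-early and heat shock genes, which also respond to tissue handling, gave 14 higher and 2 lower of 28, among them Ier3 (7.97 ± 0.73) and Klf6 (5.67 ± 0.41, SE). Of 28 progenitor and fetal liver genes 12 were higher and 3 lower; Ncam1, an adhesion molecule found on hepatic progenitors, averaged 3.22 in Diff_Hepatocyte cells and 2.48 in Diff_Cholanglocyte cells, against -6.64 in primary hepatocytes and -0.73 in primary cholangiocytes. Of 28 Notch pathway genes 8 were higher and 6 lower, the lower ones near the share of all genes, with the ligand gene Jag2 at least 20.8-fold lower in primary hepatocytes than in primary cholangiocytes.

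Cholesterol synthesis genes were lower for 14 of 25 and higher for none by limma, against 22.2% and 15.5% of all genes, and without Primary_Cholangocyte replicate 4 the lower ones numbered 5. Sc5d, a late enzyme of the pathway, averaged 1.45 ± 0.29 in Diff_Hepatocyte cells and 2.02 ± 0.05 in Diff_Cholanglocyte cells, against 6.22 ± 0.51 in primary hepatocytes and 2.15 ± 0.34 in primary cholangiocytes (SD, n = 4, 3, 4 and 2). Insig1, a sterol-regulated protein, had a difference of differences of -4.17 ± 0.97 (SE). Chemokines gave 5 higher, a share near that of all genes, 10 lower and 10 not called of 25. Cxcl17, a mucosal chemokine, lay in the opposite class with an in vitro gap of 4.57, and was at least 40.9-fold lower in primary hepatocytes than in primary cholangiocytes. Ccl6 lay there in the other direction, at least 3.19-fold lower in Diff_Hepatocyte cells than in Diff_Cholanglocyte cells and at least 9.3-fold higher in primary hepatocytes than in primary cholangiocytes. Cxcl3, a neutrophil attractant, was at -5.64 to -4.49 in Diff_Hepatocyte cells and -0.41 to 0.81 in Diff_Cholanglocyte cells. Cxcl12 had gaps of 4.18 in culture and 12.23 in the primary cells, with primary hepatocytes standing apart as high.

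Markers of other cell types were counted in the same way, against 22.2% lower and 15.5% higher of all genes. Of 23 endothelial markers 16 were lower and 1 higher in the difference of differences. Summed on the linear scale, where 1 is the 75th percentile of the array, they reached 5.40 to 8.56 in Diff_Hepatocyte cells and 10.3 to 16.8 in Diff_Cholanglocyte cells, against 18.7 to 22.3 in primary hepatocytes and 7.73 to 7.96 in primary cholangiocytes. Stab2, a scavenger receptor of sinusoidal endothelium, stood apart as high in primary hepatocytes, and Stab1 lay in the opposite class, at -5.48 to -2.75 in Diff_Hepatocyte cells and -1.99 to -0.02 in Diff_Cholanglocyte cells, against -2.01 to -1.07 in primary hepatocytes and no array well above background in primary cholangiocytes. Of 26 leukocyte and Kupffer markers 10 were lower and 2 higher, and they summed to 21.2 to 50.3 in Diff_Hepatocyte cells and 19.6 to 29.5 in Diff_Cholanglocyte cells, against 52.6 to 93.5 in primary hepatocytes and 45.5 to 46.0 in primary cholangiocytes. Of 10 class II antigen presentation genes 1 was higher and 2 lower, near the shares of all genes. Clec4f, which defines Kupffer cells, was at -2.97 to -1.62 in primary hepatocytes and well above background on no array of the other 3 groups. Cd14 and Cd68 ran the other way in the primary cells. Cd14 averaged 3.39 in Diff_Hepatocyte cells and 2.73 in Diff_Cholanglocyte cells, against -4.16 in primary hepatocytes and 4.63 in primary cholangiocytes. Cd68 was at least 19.1-fold lower in primary hepatocytes, where it was not well above background, than in primary cholangiocytes. Red cell markers, of which 4 of 7 were lower, summed to 15.7 to 24.6 in primary hepatocytes and to 0.862 to 1.51 in the other groups, and Alas2, the heme enzyme of red cells, was well above background in primary hepatocytes alone. Of 20 stellate cell markers 3 were higher and 4 lower, again near the shares of all genes, with sums of 65.7 to 112 in Diff_Hepatocyte cells and 68.7 to 108 in Diff_Cholanglocyte cells, against 40.8 to 45.1 in primary hepatocytes and 37.0 to 52.6 in primary cholangiocytes. The part of these cells in the differences above was not tested.

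**Figure D5:**
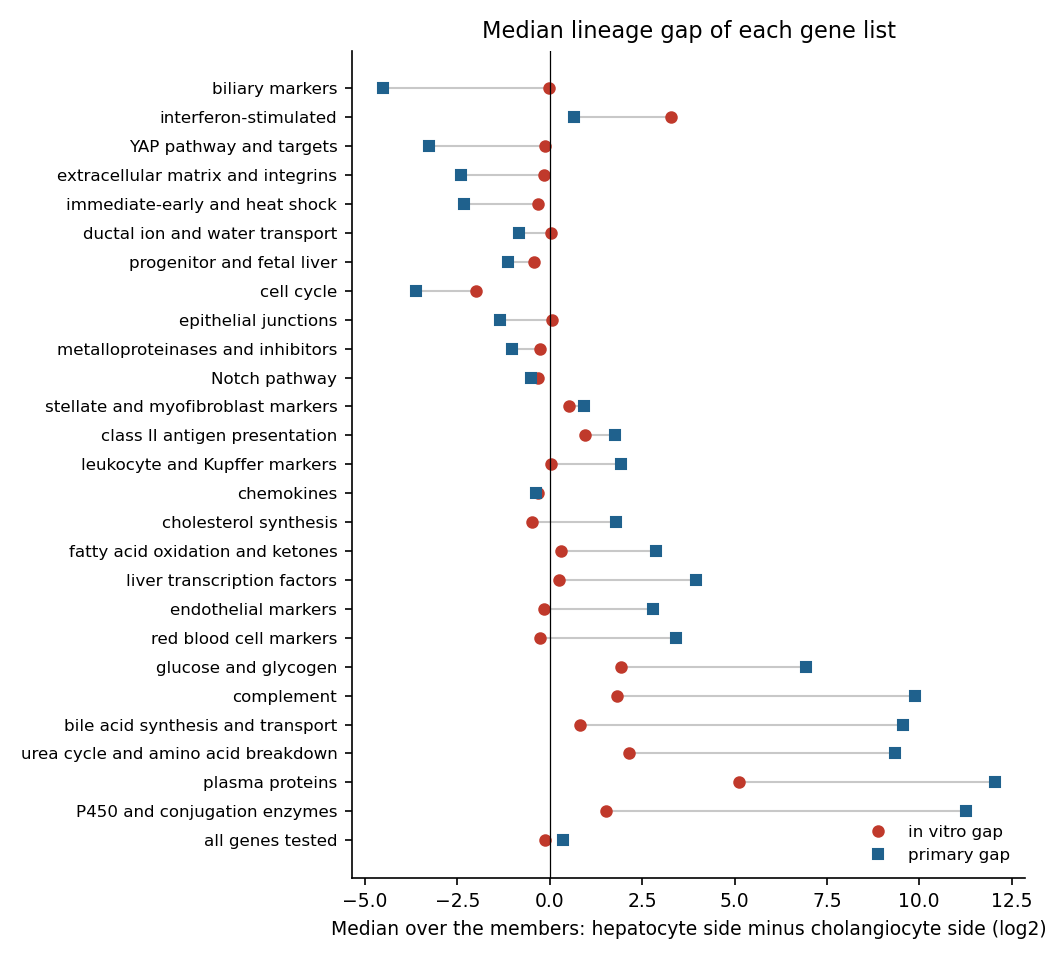
For each of the 26 gene lists and for all genes tested, the median in vitro gap (red circle) and the median primary gap (blue square) are shown in log2 units, ordered by the median difference of differences. The blue squares reach from -4.53 for biliary markers to 12.04 for plasma proteins, and the red circles from -1.99 for cell cycle genes to 5.12 for plasma proteins, with interferon-stimulated genes at 3.29.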

How the data were processed

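RNA was hybridised to 1-colour Agilent mouse arrays, extracted with Feature Extraction 10.5.1.1 per the file headers (9.53 per the submitters' processing notes). The deposited processed signals are background-subtracted intensities, per the file headers. The authors' deposited comparison table holds signed fold changes, treated as scores. A difference of differences was formed by subtracting log2 fold changes of its comparisons, and only the sign of that difference is reported. From the intensities, log2 signal minus each array's 75th percentile was taken, spots of a probe were averaged, and 32302 probes well above background on at least 2 of 17 arrays were kept; the brightest probe stood for each of 25975 genes. RefSeq named 26330 probes by accession; the others kept symbols or file names. limma 3.58.1 (R 4.3.3) was fitted to 5 group means over 17 arrays, the undifferentiated cells adding only to the estimate of spread, with Benjamini-Hochberg adjustment over all genes. "At least N-fold" sets the bright group's mean against the higher of the dim probe and the lowest signal well above background. Named genes are fixed markers, the genes with the largest difference of differences in each direction, leading genes of some classes, and list members. The opposite class and that with both gaps but no called difference were ranked by the smaller gap. The in-vitro-only class and the same-direction class with the larger gap in culture were ranked by the difference of differences. The largest and the class leaders were taken among genes above background on every array. Lists gave up to 4 called members per direction and up to 2 not called. Members and lists were chosen with earlier results of these data known. The number of arrays limits precision. In simulated data 50 genes were changed at each size, in Diff_Hepatocyte cells alone. Of these 2% were recovered at 1 log2 unit, 52% at 2, 42% at 3 and 82% at 4. In the data 37.8% of genes were called, so the adjustment was stricter in the simulation. Its shares are not the recovery in these data. Scaling, filter, probe rule, slide and replicate blocks and single arrays were varied. Some genes are not reported here by name.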

Additional observations from a re-analysis of the deposited data

Results flagged for a closer look

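In groups of 4, a sample was singled out when its gap to the nearest other sample took more of the group's range than Dixon's critical value. Chance does this for about 1 in 20 groups, and 4 of 244 comparisons did. Fbln2 was at -3.53 in Primary_Hepatocyte replicate 1, against -5.45 to -5.42 in the others, and Ddx58 at 1.55 in Primary_Hepatocyte replicate 3, against 1.75 to 1.78. Spsb4 was at -0.69 in Diff_Hepatocyte replicate 1, against -3.21 to -2.94 in the others, and Cldn4 at -2.48 in Diff_Hepatocyte replicate 2, against -6.03 to -5.57.

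The lineage gap differed between culture and primary cells by limma's own test of that difference for 9807 genes, of which 662 had called gaps in opposite directions. Among the opposite genes named above, the differences of differences were 18.32 for Mmp7, 12.80 for Rgs2, 12.70 for Slc16a3, 11.12 for Lcn2, 10.34 for Aebp1 and 9.92 for Pdzk1ip1. They were -10.08 for Spsb4, -9.56 for Slc1a2, -7.92 for Lcp1, -6.69 for Tgfbi, -6.67 for Camk1d and -6.34 for Ptprb.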

How the results depend on the processing

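With normexp background correction the difference of differences passed for 17004 genes (3389 higher, 13615 lower) and the primary gap alone for 14489; without the filter on dim probes 13299 passed, 9197 of them lower. The cause was not tested. The other scalings gave 8751 (array median) and 10406 (quantile) genes, the slide as a block 10970 and the stricter filter 9761. Leaving out each array in turn gave 8826 to 9940 genes for the difference of differences, 2641 to 4511 for the in vitro gap, 425 to 684 for the opposite class, 413 to 700 and 18 to 49 for the same-direction classes with the larger gap in the primary cells and in culture, 19 to 32 lower plasma proteins and 5 to 16 lower cholesterol genes. With the replicate number as a block 8427 genes passed (3660 higher, 4767 lower), 8153 of them shared with the fit without it. Among the 4 groups compared, same-numbered arrays correlated at -0.23 to 0.14 in their deviations from group means, so the numbers were not taken to pair them. The 3 same-numbered pairs of Undiff and Diff_Cholanglocyte correlated at 0.28 to 0.39. Undiff 1, 2, 3 and 4 correlated with Diff_Hepatocyte 3, 1, 2 and 4 at 0.38, 0.44, 0.35 and 0.52. Their other pairs were at -0.36 to -0.01. Diff_Hepatocyte 1, 2 and 3 correlated with Diff_Cholanglocyte 2, 3 and 1 at 0.21, 0.33 and 0.11. The other pairs of these cultures were at -0.23 to 0.14. Whether cultures of different number shared a source was not tested, and the fit pairs no arrays. Undiff adds to the spread only. Within slide 4, the single slide with all 4 groups, 9772 of the 9807 genes had the same sign (99.6%). In the difference formed from the authors' deposited fold changes, 9699 of 9765 (99.3%) had the same sign. Both sets of signs come from arrays that also called these genes, so neither is an independent check. Of the 122 genes examined singly 111 were called, 106 of them under every one of 22 alternatives, and none of the 122 reversed. Many of them were chosen for large effects, which favours such stability. Over all genes, some called in both fits had opposite signs: 129 of 8818 with normexp, 8 of 8720 with quantile normalization and 8 of 9308 with the mean of probes. Under quantile normalization Bst2 was at -1.06 (adjusted p = 0.103). Low signal in primary hepatocytes limits the measurement of genes that were dim there.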
